A study of Mus musculus with 267 samples.

Results

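The regions described here are EGR2 sites at which macrophages whose Egr2 gene was deleted still gained the histone mark H3K27ac after IL-4. They were chosen from 4677 regions, listed because they carried an EGR2 peak at 24 h of IL-4 and none at rest in C57 macrophages, as those whose H3K27ac rose at least 2.5-fold in LyzM-Cre Egr2 fl/fl macrophages, with at least 16 normalized tags before or after. The 4677 regions were annotated as intronic (2606) or intergenic (2071), so EGR2 sites at promoters are not covered. A normalized tag is a read scaled to a library of 10000000 reads, and 1 was added to each group mean before the fold was taken. This rule held for 376 of the 4677 regions, or 8.04%; 2482 of them reached the minimum of 16 tags.

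Bone marrow cells of female mice were cultured for 7 days in M-CSF and were then left at rest (basal) or given 20 ng/mL IL-4 for 24 h. C57 macrophages were used as well, at rest, at 24 h and after shorter IL-4 treatments, whose times are given with their results. Macrophages of the strains BALB/cJ, NOD/ShiLtJ, PWK/PhJ and SPRET/EiJ gave further H3K27ac libraries, at rest and at 24 h. In Egr2 fl/fl mice both Egr2 alleles carry loxP sites and no Cre is present. LyzM-Cre Egr2 fl/fl mice carry the same alleles and Cre recombinase driven from the lysozyme M locus, which is active in cells of the myeloid lineage and can leave some alleles intact. Each genotype and condition had 2 H3K27ac ChIP-seq libraries, which the labels call biological replicates without naming the mice. No EGR2 library of these mice was used, so the loss of EGR2 itself was not checked here. In bulk chromatin, fewer cells that carry a mark and less mark per cell cannot be told apart.

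IL-4 binds its receptor on macrophages, activates JAK kinases and leads to the phosphorylation of STAT6, which enters the nucleus and binds DNA. EGR2 is a zinc finger transcription factor that STAT6 itself induces, so it belongs to a second wave of the response in alternatively activated macrophages. H3K27ac is laid down on nucleosomes at active promoters and enhancers, H3K4me2 marks enhancers that are active or poised, and PU.1 and C/EBPb are lineage factors that hold macrophage enhancers open.

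The 8 H3K27ac libraries held between 9624649 and 17840330 reads, and replicate 2 was the deeper one in each of the 4 groups. A level of 16 normalized tags stood for 15.4 to 28.5 reads. The 4677 regions took 2.496% and 2.741% of the reads in the basal LyzM-Cre Egr2 fl/fl libraries and 2.94% and 3.24% in the IL-4 libraries, against 2.68% and 2.80% and then 3.41% and 3.69% in Egr2 fl/fl. Replicates correlated across regions at 0.951 to 0.957 on the log2 scale and differed by more than sampling noise. Of 7 macrophage markers, 2 had a region of their own: the Csf1r region held 651 to 1000 tags and the Adgre1 region 210 to 530 tags in the 8 libraries, while Mpo, which marks the neutrophil lineage, held 0 to 5.03 tags. Markers of T cells, B cells, dendritic cells, mast cells and fibroblasts had no region in the table.

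The sequences below are the middle 200 bases of 12 of the regions (mm10, plus strand). They are shown because a STAT6 motif was found more often in the retained gains and an EGR motif more often in the gains of Egr2 fl/fl alone. Capitals mark every match to either motif: STAT6 as TTC and GAA with 4 bases between them, which reads the same on both strands, and EGR as GNGTGGGNG on either strand. The first 7 are regions with large gains in both genotypes or regions of alternative activation genes, and were chosen for display because each holds a STAT6 match. Among the 12 largest gains, 7 held a STAT6 match and 6 an EGR match in this window. The regions near Ang5 and Ang6 count in both, although their windows are nearly the same sequence inverted. The 2 largest, near Gm8113 and 1700021F07Rik, held EGR matches and no STAT6 match, and the intronic Tmem26 region held neither.
Msx3, chr7:140051848-140052047: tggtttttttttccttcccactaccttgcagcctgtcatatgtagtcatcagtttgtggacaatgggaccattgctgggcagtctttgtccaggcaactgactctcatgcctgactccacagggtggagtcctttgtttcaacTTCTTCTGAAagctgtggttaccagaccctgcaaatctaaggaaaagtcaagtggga
Pim3, chr15:88855489-88855688: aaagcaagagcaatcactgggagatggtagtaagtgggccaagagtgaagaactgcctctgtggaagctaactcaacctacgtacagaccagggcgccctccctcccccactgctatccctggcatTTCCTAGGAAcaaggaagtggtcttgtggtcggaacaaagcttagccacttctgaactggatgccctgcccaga
Gpr65, chr12:98311826-98312025: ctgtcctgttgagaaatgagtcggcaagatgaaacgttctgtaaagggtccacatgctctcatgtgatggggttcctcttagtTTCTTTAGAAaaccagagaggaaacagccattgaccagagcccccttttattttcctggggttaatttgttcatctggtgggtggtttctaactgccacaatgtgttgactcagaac
March10, chr11:105439595-105439794: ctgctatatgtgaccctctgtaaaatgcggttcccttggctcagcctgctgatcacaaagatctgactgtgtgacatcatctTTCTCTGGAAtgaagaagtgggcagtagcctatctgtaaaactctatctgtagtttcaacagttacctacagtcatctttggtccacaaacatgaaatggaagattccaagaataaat
Ccl8, chr11:82174047-82174246: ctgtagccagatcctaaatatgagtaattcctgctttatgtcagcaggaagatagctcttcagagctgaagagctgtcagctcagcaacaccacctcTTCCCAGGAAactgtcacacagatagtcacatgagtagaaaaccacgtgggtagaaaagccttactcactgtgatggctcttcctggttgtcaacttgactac
Mgl2, chr11:70114625-70114824: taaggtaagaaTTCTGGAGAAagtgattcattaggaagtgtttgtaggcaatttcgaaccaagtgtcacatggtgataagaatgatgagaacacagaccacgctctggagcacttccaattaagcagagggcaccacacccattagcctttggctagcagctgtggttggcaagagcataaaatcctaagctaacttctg
Arg1, chr10:24930267-24930466: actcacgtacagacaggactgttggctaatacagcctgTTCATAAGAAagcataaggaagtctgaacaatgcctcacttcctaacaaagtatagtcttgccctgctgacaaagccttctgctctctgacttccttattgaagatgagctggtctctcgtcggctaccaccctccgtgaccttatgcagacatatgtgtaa
The Egr2 gene holds a region in its own intron, with matches to both motifs.
Egr2, chr10:67539116-67539315: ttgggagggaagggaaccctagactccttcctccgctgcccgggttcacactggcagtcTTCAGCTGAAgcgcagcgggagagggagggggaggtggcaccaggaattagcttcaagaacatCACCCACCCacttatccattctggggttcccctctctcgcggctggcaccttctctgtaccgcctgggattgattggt
The last 4 comprise a pair of regions near Chic2 that lie 20.0 kb apart, of which the first gained H3K27ac in both genotypes and the second in Egr2 fl/fl alone, and the regions near Rwdd1 and Mef2c, which passed the rule in Egr2 fl/fl alone. Both Chic2 regions hold an EGR match and no STAT6 match, Rwdd1 holds a STAT6 match, and Mef2c holds both.
Chic2 (gained in both), chr5:74949406-74949605: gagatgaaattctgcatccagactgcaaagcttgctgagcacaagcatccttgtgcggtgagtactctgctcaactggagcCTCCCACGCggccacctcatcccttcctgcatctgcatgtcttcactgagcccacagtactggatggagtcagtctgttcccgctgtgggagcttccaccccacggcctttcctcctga
Chic2 (gained in Egr2 fl/fl alone), chr5:74969437-74969636: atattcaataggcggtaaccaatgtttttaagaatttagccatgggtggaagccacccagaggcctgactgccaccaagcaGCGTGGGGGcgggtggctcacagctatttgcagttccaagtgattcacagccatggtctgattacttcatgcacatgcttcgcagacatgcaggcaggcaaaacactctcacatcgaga
Rwdd1, chr10:34016847-34017046: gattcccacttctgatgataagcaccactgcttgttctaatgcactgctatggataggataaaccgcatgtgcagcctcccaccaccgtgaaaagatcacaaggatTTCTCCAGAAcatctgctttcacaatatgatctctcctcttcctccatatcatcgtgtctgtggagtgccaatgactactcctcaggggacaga
Mef2c, chr13:83024086-83024285: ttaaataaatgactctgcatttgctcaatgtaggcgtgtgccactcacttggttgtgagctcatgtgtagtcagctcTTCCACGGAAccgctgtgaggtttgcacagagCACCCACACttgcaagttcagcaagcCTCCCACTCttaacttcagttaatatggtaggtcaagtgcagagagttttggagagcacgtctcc

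At the 4677 regions, most of the H3K27ac change after IL-4 in LyzM-Cre Egr2 fl/fl macrophages was a gain. They were listed for an EGR2 peak gained with IL-4 in C57, so this balance does not extend to other regions. By limma on log2(tags + 1) with all 8 libraries in 1 fit, 673 of the 4677 regions (14.4%) rose and 191 (4.08%) fell at an adjusted p under 0.05. Both IL-4 libraries lay above both basal libraries at 1579 regions, or 33.8%, and below both at 878. An exact permutation test of 2 against 2 libraries cannot go below 0.333, so this order alone does not show a response. By the fold rule 376 regions rose and 50 (1.07%) fell. Of these 376, limma called 371 higher and 375 had replicates that did not overlap; these counts rest on the same libraries as the rule and are a description. The regions at the edge of the rule were near F7 at 2.507-fold, just inside, and near Etv5 at 2.499-fold, just outside.

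The median over all regions of the log2 fold was 0.14 in LyzM-Cre Egr2 fl/fl and 0.50 in Egr2 fl/fl. After scaling each library by the median ratio over the regions these medians became -0.02 and 0.05, and the calls in LyzM-Cre Egr2 fl/fl became 576 higher and 339 lower, or 63.0% higher against 77.9% before. The folds of single regions are given on the scale of the library totals and can be read against those medians.

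In the 376 regions the median H3K27ac level of LyzM-Cre Egr2 fl/fl macrophages was 12.03 and 13.45 tags in the basal libraries and 71.7 and 75.7 tags in the IL-4 libraries. The same regions in Egr2 fl/fl had medians of 19.6 and 17.6 tags at rest and 87.4 and 89.9 tags after IL-4. The medians of LyzM-Cre Egr2 fl/fl were the lower ones in both conditions, and replicates of a group lay closer to each other than the conditions did. The Egr2 fl/fl libraries were not used by the rule. There 349 of the 376 regions were called higher by limma, against 25.6% of all regions, and the median log2 fold was 1.94, beside 2.03 in LyzM-Cre Egr2 fl/fl, where the range was 1.31 to 6.13.

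**Figure D1:**
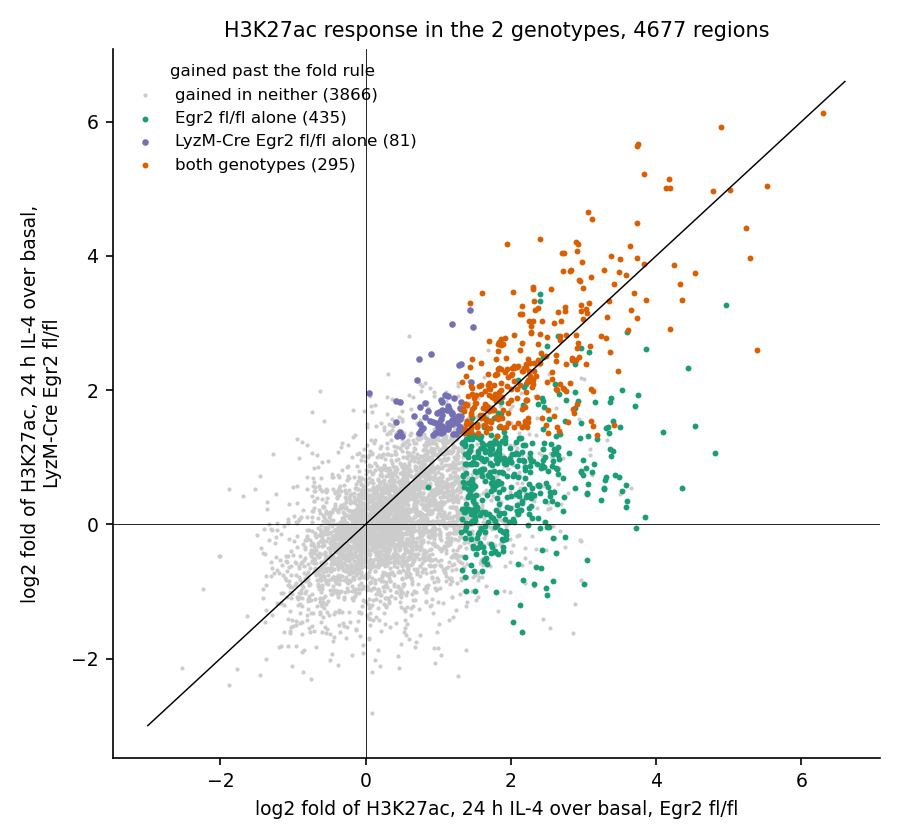
Each point is 1 of 4677 regions, with the limma log2 fold of H3K27ac (24 h IL-4 over basal) in Egr2 fl/fl on the x axis and in LyzM-Cre Egr2 fl/fl on the y axis; the diagonal marks equal folds. Points are coloured by the fold rule, and the 295 regions gained in both genotypes scatter on both sides of the diagonal, by -2.80 to 2.24. All but 7 of the 435 gained in Egr2 fl/fl alone lie below it, which follows largely from the rule, since it used the same libraries.

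The region with the largest gain lay 14.2 kb from the start of Gm8113 (chr14:43939049-43940049, intergenic). It held 1.00 and 3.36 tags at rest and 196 and 217 tags after IL-4 in LyzM-Cre Egr2 fl/fl, a log2 fold of 6.13 ± 0.49 (SE, adjusted p = 2.34e-07). Its levels in Egr2 fl/fl were 0 and 2.04 tags at rest and 134 and 138 tags after IL-4. All 4 IL-4 libraries stood far above all 4 basal ones, and the groups did not overlap in either genotype. The 12 largest gains were chosen by fold among regions without overlap in LyzM-Cre Egr2 fl/fl. Their folds, p-values and lack of overlap in that genotype are therefore a description.

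Other regions with large gains on chromosome 14 lay near genes of the RNase A family, which includes the angiogenins and the eosinophil-associated ribonucleases. The region near Ang6 went from 2.01 and 0.56 to 87.3 and 72.5 tags in LyzM-Cre Egr2 fl/fl. The region near Ang5 went from 4.01 and 1.12 to 101 and 130 tags, and that near Ear14 from 4.01 and 4.48 to 139 and 202 tags. Their log2 folds were 5.22, 5.15 and 5.01 (adjusted p at most 7.14e-07), and no library overlapped between the conditions. The family has near-identical copies, so reads could be split between them, and the levels of these regions and of that near Gm8113 are uncertain. The central 200 bases near Ang5 are nearly the reverse complement of those near Ang6, so their gains may not be separate observations.

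Msx3 encodes a homeobox factor, and the region 2.86 kb from its start (chr7:140051448-140052448, intergenic) held 4.01 and 6.17 tags at rest and 291 and 304 tags after IL-4 in LyzM-Cre Egr2 fl/fl. Its Egr2 fl/fl libraries held 18.8 and 12.9 tags at rest and 210 and 229 tags after IL-4. The conditions did not overlap, and the log2 folds were 5.64 ± 0.28 (adjusted p = 4e-09) and 3.73 ± 0.28. The difference of 1.90 between the genotypes did not pass the threshold (adjusted p = 0.0838).

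Gpr65 is a proton-sensing receptor of immune cells, and its region lay 43.3 kb away (chr12:98311426-98312426, intergenic). It held 4.01 and 4.48 tags at rest and 293 and 241 tags after IL-4 in LyzM-Cre Egr2 fl/fl, and 24.7 and 8.82 and then 203 and 222 tags in Egr2 fl/fl. Both IL-4 libraries of LyzM-Cre Egr2 fl/fl lay above those of Egr2 fl/fl and both basal ones below, and the log2 fold in LyzM-Cre Egr2 fl/fl was 5.67 ± 0.36 (adjusted p = 2.45e-08).

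Pim3, a serine/threonine kinase, had a region 6.597 kb from its start (chr15:88855089-88856089) with 11.03 and 6.73 tags at rest and 261 and 373 tags after IL-4. The region held 8.52 and 12.9 tags and then 189 and 213 tags in Egr2 fl/fl. The genotypes overlapped at rest and neither overlapped between conditions, with log2 folds of 5.02 ± 0.30 (adjusted p = 2.04e-08) and 4.13 ± 0.30.

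March10 encodes a membrane-associated ubiquitin ligase. An intron of it held a region (chr11:105439195-105440195) with 8.02 and 3.92 tags at rest and 203 and 215 tags after IL-4 in LyzM-Cre Egr2 fl/fl. The Egr2 fl/fl values were 5.11 and 5.43 and then 196 and 209 tags. The genotypes overlapped in both conditions, and the log2 folds were 4.98 ± 0.31 and 5.02 ± 0.31 (adjusted p = 2.45e-08 and 1.49e-07).

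Ccl8, a chemokine for monocytes, was the nearest gene of a region 59.0 kb away (chr11:82173647-82174647). This region was the most heavily marked of the 12 largest gains, with 14.04 and 22.4 tags at rest and 459 and 486 tags after IL-4 in LyzM-Cre Egr2 fl/fl. At this region Egr2 fl/fl held 31.5 and 38.7 tags at rest and 304 and 293 tags after IL-4. Its log2 fold was 4.66 ± 0.24 (adjusted p = 4.94e-09), and the IL-4 libraries of LyzM-Cre Egr2 fl/fl lay above those of Egr2 fl/fl. The difference of 1.60 ± 0.34 was not called (adjusted p = 0.087).

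An intron of Tmem26, a transmembrane protein, carried a region 2.08 kb from the start with 1.00 and 1.12 tags at rest and 67.5 and 59.8 tags after IL-4. The Egr2 fl/fl libraries held 2.56 and 2.72 tags and then 115 and 85.4 tags. Both genotypes rose without overlap, with log2 folds of 4.97 ± 0.39 and 4.78 ± 0.39 (adjusted p = 2.09e-07 and 5.51e-07). The remaining 2 of the 12 largest gains were near 1700021F07Rik (log2 fold 5.92) and Chic2 (5.04).

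**Figure D2:**
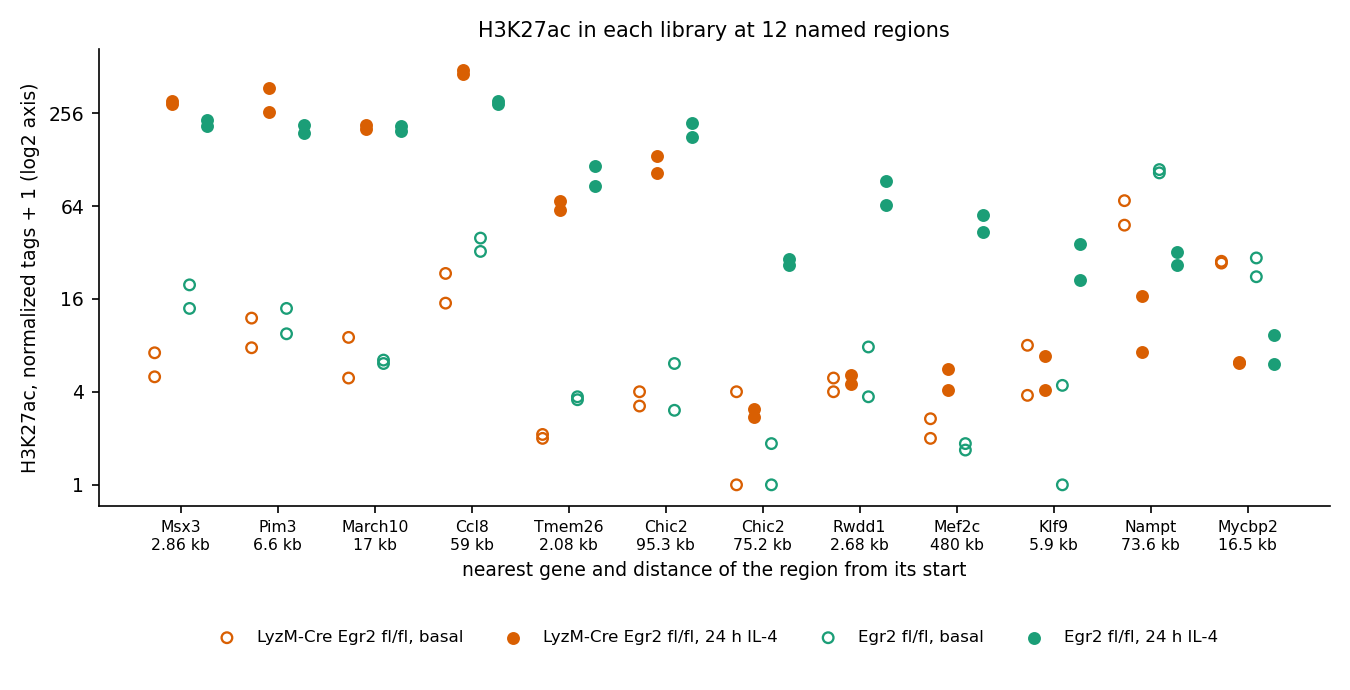
H3K27ac in each library at 12 named regions, on a log2 axis of normalized tags plus 1; open circles are basal and filled circles 24 h IL-4, with LyzM-Cre Egr2 fl/fl in orange and Egr2 fl/fl in green. The 6 regions on the left rose in both genotypes, the next 4 rose in Egr2 fl/fl alone by the fold rule, and Nampt and Mycbp2 on the right fell in both.

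Loss of the mark was less common. Of the 50 regions that lost H3K27ac by the rule in LyzM-Cre Egr2 fl/fl, 7 also lost it by the rule in Egr2 fl/fl, where 15 of all 4677 did. The log2 fold in Egr2 fl/fl was below 0 at 45 of the 50, beside 1185 of all 4677. The region 73.6 kb from Nampt, which encodes an enzyme of NAD salvage, held 47.1 and 68.4 tags at rest and 6.23 and 15.7 tags after IL-4, and it fell by 2.40 ± 0.36 on the log2 scale (adjusted p = 0.000151). The Egr2 fl/fl values went from 104 and 109 to 31.2 and 25.7 tags.

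The region nearest Setbp1 went from 194 and 193 tags to 39.5 and 40.6 tags in LyzM-Cre Egr2 fl/fl and from 239 and 219 to 98.5 and 70.0 tags in Egr2 fl/fl. Near Mycbp2, a ubiquitin ligase, the values went from 27.1 and 26.3 to 5.19 and 5.22 tags. Neither region overlapped between conditions, and both were called lower (adjusted p = 2.18e-06 and 0.00129). The named losses were chosen among regions without such overlap, so this is a description of them. The region near Zfp275 held 21.1 and 14.6 tags and then 1.04 and 6.96 tags, an estimated fall of 2.20 on the log2 scale (adjusted p = 0.00854) that was not called without replicate 1 of the LyzM-Cre Egr2 fl/fl IL-4 libraries (adjusted p = 0.113) or without replicate 1 of the basal ones (0.071). Of the 50 losses, 34% held a C/EBP motif (TTGCNNAA) in the central 200 bases, against 16.5% of all regions. A STAT6 motif was held by 8% (95% Wilson interval 3.2 to 18.8), against 17.5% of all regions, which lies within that interval.

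The rule was met as a gain in Egr2 fl/fl by 730 regions (15.6%). Of these, 295 also did so in LyzM-Cre Egr2 fl/fl, which is 40.4% of the Egr2 fl/fl gains (95% Wilson interval 36.9 to 44.0, counting error only) and 78.5% of the 376. By limma the shared gains were 558, or 46.7% of 1196 and 82.9% of 673. The 1196 higher calls became 640 with median-ratio scaling, 785 with edgeR, 493 with DESeq2, and 688 or 668 without replicate 1 or 2 of the Egr2 fl/fl IL-4 libraries, so the share of 46.7% holds for limma on library totals. The 2 contrasts share no library. After median-ratio scaling the share of Egr2 fl/fl gains that was retained was 50.8%.

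The remaining 435 regions passed the rule in Egr2 fl/fl alone. Their median level in LyzM-Cre Egr2 fl/fl was 6.02 and 5.04 tags at rest and 9.35 and 9.29 tags after IL-4, against 9.37 and 7.47 and then 36.2 and 35.3 tags in Egr2 fl/fl. Their levels were thus lower than those of the retained gains in every library, and over all 8 libraries the median of the mean level was 14.8 tags against 51.1 for the 376; the part of level in the comparisons that follow was not tested. In LyzM-Cre Egr2 fl/fl, 362 of the 435 had a log2 fold above 0, beside 2732 of all 4677 regions. There limma called 86 of the 435 (19.8%) higher, beside 14.4% of all regions. The 81 regions that passed in LyzM-Cre Egr2 fl/fl alone all had a log2 fold above 0 in Egr2 fl/fl, beside 3491 of all 4677. Of these 81, 56 (69.1%) were called higher there, beside 25.6% of all regions. Passing the rule in 1 genotype alone does not show that the genotypes differ.

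The difference between the responses was tested itself. With limma 0 of the 4677 regions passed an adjusted p of 0.05, while 615 did so before adjustment, of which 546 were lower and 69 higher in LyzM-Cre Egr2 fl/fl. By edgeR the count was 0 and by DESeq2 2, both higher. With a pseudocount of 5 in place of 1 it was 60, of which 58 were lower. Without replicate 2 of the LyzM-Cre Egr2 fl/fl IL-4 libraries it was 16, without replicate 2 of the basal ones 8, and without replicate 2 of basal Egr2 fl/fl 1. In the 435 regions, 222 had an unadjusted p under 0.05, all of them lower, but these regions were chosen in part by that difference. The median difference over all regions was -0.27 and became 0.04 after median-ratio scaling, so the direction of the general shift depends on the scaling.

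In the 730 gains of Egr2 fl/fl, the median log2 fold in LyzM-Cre Egr2 fl/fl was 1.01 in the 357 regions with an Egr2 fl/fl log2 fold under 2, 1.58 in the 273 from 2 to 3, 1.90 in the 78 from 3 to 4 and 3.80 in the 22 at 4 or more. The shares that passed the rule were 31.9%, 46.5%, 48.7% and 72.7%. The rule has 1 fixed fold, so regions near it in Egr2 fl/fl pass less often than those far above it even under an equal proportional reduction, and nothing is read from the order of these shares.

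A further 6 regions gained in Egr2 fl/fl were named for the lowest difference of the responses, so their differences are a description. The region in an intron of Rwdd1 (chr10:34016447-34017447) held 3.01 and 3.92 tags at rest and 4.16 and 3.48 tags after IL-4 in LyzM-Cre Egr2 fl/fl. Egr2 fl/fl held 6.82 and 2.72 tags at rest and 91.5 and 64.2 tags after IL-4. The 2 IL-4 libraries of Egr2 fl/fl stood above the other 6, which overlapped one another.

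The region nearest Mef2c, a MADS box transcription factor, lay 480 kb from its start (chr13:83023686-83024686). It held 1.00 and 1.68 tags and then 3.12 and 4.64 tags in LyzM-Cre Egr2 fl/fl, against 0.85 and 0.68 and then 55.3 and 42.4 tags in Egr2 fl/fl. In the only intron of Klf9, a zinc finger factor, the values were 7.02 and 2.80 and then 3.12 and 5.80 tags, against 3.41 and 0 and then 20.1 and 35.3 tags. At both regions the 2 IL-4 libraries of Egr2 fl/fl stood above the other 6, and at Klf9 those of LyzM-Cre Egr2 fl/fl lay between its basal ones.

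The differences at Rwdd1, Mef2c and Klf9 were -3.73 ± 0.70, -3.75 ± 0.76 and -3.78 ± 0.97 on the log2 scale. At Selenof, Chic2 and Pde4a they were -3.91, -3.82 and -3.75. The adjusted p of these 6 lay between 0.0838 and 0.16. The highest differences among gains of LyzM-Cre Egr2 fl/fl were at Tra2b (2.24), Gpr65 (1.92), Msx3 and Snd1 (both 1.90), and none of these was called (adjusted p 0.0838 to 0.222).

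Neighbouring regions could differ. Of 5 regions nearest Chic2, which encodes a small hydrophobic protein, 4 gained H3K27ac in both genotypes, and the one with the largest gain (chr5:74949006-74950006, intron of a non-coding transcript) went from 3.01 and 2.24 to 104 and 134 tags in LyzM-Cre Egr2 fl/fl. The region that starts 20.0 kb further along (chr5:74969037-74970037, intergenic) held 3.01 and 0 tags and then 2.08 and 1.74 tags there, against 0.85 and 0 and then 28.1 and 25.7 tags in Egr2 fl/fl. The first region rose in both genotypes without overlap, whereas in the second the LyzM-Cre Egr2 fl/fl conditions overlapped. STAT6 was at 0 tags at the second region in all 4 LyzM-Cre Egr2 fl/fl libraries, basal ones included. Those libraries were low in STAT6 throughout, with medians over all regions of 2.75 to 4.12 tags and 312 to 703 regions at 0.

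The 376 regions had 299 distinct nearest genes, and several loci held more than 1 gain. Creb5 and Rbbp6 had 4 gains each, of 6 and 5 regions. Arg1, which encodes arginase 1, and Fcgr2b, the inhibitory Fc receptor, each had 3 gains of 3 regions, Itgb3 had 3 of 4 and Pik3r1 3 of 9. The nearest start of a protein-coding gene was a median of 34.1 kb away, against 26.7 kb over all regions. Of the 376, 44.2% were intronic against 55.7% of all regions.

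Genes of the pathway were then taken from lists, with 1 region a gene, the one with the highest mean H3K27ac over all 8 libraries. That choice used the IL-4 libraries and favoured high levels, so list counts set beside all regions are a description. Of 17 genes of the IL-4 receptor, the JAK-STAT6 pathway and its feedback, 7 had a region and 1 was called higher in LyzM-Cre Egr2 fl/fl, a share near the 14.4% of all regions. This was Jak2, which encodes a receptor-associated kinase, with 31.09 and 28.03 tags at rest and 75.9 and 46.4 tags after IL-4 (log2 fold 0.98 ± 0.30, adjusted p = 0.0277). The call was lost with median-ratio scaling (adjusted p = 0.0736), with DESeq2 (0.125) and without replicate 1 of the IL-4 libraries (0.277) or either basal library (0.071 and 0.113). The region at Il4ra, the receptor chain, held 215 and 265 tags and then 273 and 252 tags, which overlapped. Socs2, a feedback inhibitor, went from 3.01 and 4.48 to 10.4 and 6.38 tags in LyzM-Cre Egr2 fl/fl and was not called (adjusted p = 0.273), while in Egr2 fl/fl it rose from 8.52 and 2.04 to 35.2 and 30.8 tags (adjusted p = 0.00194). Socs1, another feedback gene of the list, had the highest log2 fold of the 7 in LyzM-Cre Egr2 fl/fl, 1.82. Limma did not call it (adjusted p = 0.0577), but did with a pseudocount of 5 (log2 fold 0.91, adjusted p = 0.0444).

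Of 25 transcription factors of the response, 18 had a region, of which 7 rose and 2 fell in LyzM-Cre Egr2 fl/fl, where 14.4% of all regions rose and 4.08% fell. Their median log2 fold was 0.56, beside 0.14 over all regions. These regions were chosen by level in the same libraries, so the comparison is a description. The region 34.4 kb from Irf4, a factor that acts downstream of STAT6 in these cells, held 1.00 and 3.36 tags at rest and 36.4 and 55.7 tags after IL-4. Egr2 fl/fl libraries held 2.56 and 6.79 tags and then 58.3 and 81.6 tags. The log2 folds were 3.96 ± 0.49 and 3.73 ± 0.49 (adjusted p = 2.2e-05 and 4.39e-05), with no overlap between conditions.

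The region in an intron of Egr2 itself (chr10:67538716-67539716) held 38.1 and 27.5 tags at rest and 161 and 143 tags after IL-4 in LyzM-Cre Egr2 fl/fl. The levels in Egr2 fl/fl were 50.3 and 38.0 and then 153 and 198 tags. It rose in both genotypes, with log2 folds of 2.20 ± 0.25 and 1.97 ± 0.25 (adjusted p = 1.05e-05 and 3.5e-05), and the IL-4 libraries of the genotypes overlapped. This value does not check the deletion.

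Batf3, a factor of the AP-1 family, rose from 149 and 200 to 373 and 429 tags, and Bhlhe40 from 43.1 and 51.0 to 103 and 102 tags. Egr1, Runx1 and Batf were the other 3 that rose, with log2 folds of 1.26, 0.67 and 1.08. Runx1 and Batf were not called with median-ratio scaling (adjusted p = 0.0521 and 0.0631) or DESeq2 (0.0805 and 0.157), and leaving out replicate 2 of the LyzM-Cre Egr2 fl/fl IL-4 or basal libraries ended the call of Runx1 (0.17 and 0.0632) and of Batf (0.0505 and 0.153), as did replicate 1 of the basal ones for Runx1 (0.147) and each other IL-4 library of either genotype for Batf (0.0531 to 0.172). Egr3 fell from 280 and 309 to 145 and 191 tags and Cebpa, which encodes C/EBPa, from 28.1 and 29.1 to 11.4 and 11.6 tags (adjusted p = 0.00766 and 0.0122). Egr3 was not called without replicate 1 of the LyzM-Cre Egr2 fl/fl IL-4 libraries (0.111) or replicate 2 of the basal ones (0.0665), and Cebpa not without either basal library (0.0517 and 0.0559). At Cebpa the Egr2 fl/fl libraries held 28.1 and 33.9 tags and then 29.1 and 41.8 tags.

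Of 35 effectors of alternative activation, 17 had a region, of which 8 rose and 1 fell, against 14.4% and 4.08% of all regions. Their median log2 fold was 0.78, beside 0.14 over all regions. Here too the regions were chosen by level in the same libraries, so the comparison is a description. Mgl2 encodes a C-type lectin, and its region 15.6 kb away (chr11:70114225-70115225) held 9.03 and 6.73 tags at rest and 84.2 and 156 tags after IL-4. Its levels were 5.96 and 8.82 tags and then 87.4 and 110 tags in Egr2 fl/fl. The log2 folds were 3.72 ± 0.35 and 3.58 ± 0.35 (adjusted p = 1.49e-06 and 3.8e-06), and the genotypes overlapped in both conditions.

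The region 2.88 kb from Arg1 (chr10:24929867-24930867) held 101 and 132 tags at rest and 422 and 373 tags after IL-4 in LyzM-Cre Egr2 fl/fl. Its levels were 166 and 158 and then 348 and 369 tags in Egr2 fl/fl. Its log2 folds were 1.77 ± 0.20 and 1.14 ± 0.20 (adjusted p = 8.68e-06 and 0.00052), and the conditions did not overlap.

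Pdcd1lg2 encodes PD-L2, an inhibitory ligand for T cells. The region in an intron of it rose from 205 and 207 to 639 and 613 tags in LyzM-Cre Egr2 fl/fl, and from 244 and 212 to 367 and 440 tags in Egr2 fl/fl. All 4 IL-4 libraries lay above the basal ones, and those of LyzM-Cre Egr2 fl/fl were the highest. Flt1, a VEGF receptor, rose from 18.1 and 28.6 to 114 and 116 tags, with a log2 fold of 2.29 beside 2.31 in Egr2 fl/fl.

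Cdh1, which encodes E-cadherin, Mmp12, the macrophage elastase, Cd83 and a second Tmem26 region were the other 4 that rose (log2 folds 1.44, 1.40, 1.79 and 2.01, adjusted p at most 0.000385). At Cd83 the IL-4 libraries held 54.0 and 60.9 tags in LyzM-Cre Egr2 fl/fl and 125 and 164 tags in Egr2 fl/fl. The collagenase gene Mmp8 fell from 58.2 and 38.7 to 24.9 and 16.2 tags (adjusted p = 0.0174), a call that was lost without replicate 2 of the IL-4 libraries (0.13) or replicate 1 of the basal ones (0.173). Itgax, the integrin chain CD11c, held 7.02 and 12.3 and then 21.8 and 12.8 tags and was not called (adjusted p = 0.175), while in Egr2 fl/fl it rose from 17.04 and 19.7 to 96.5 and 86.7 tags.

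Of 21 lipid genes 10 had a region, of which 1 rose in LyzM-Cre Egr2 fl/fl, where 14.4% of all regions rose, and 6 in Egr2 fl/fl, where 25.6% did, and the difference between the responses was called at none. The 1 was the fatty acid transporter gene Cd36, with 28.1 and 38.7 tags and then 54.0 and 67.3 tags (log2 fold 0.85 ± 0.27, adjusted p = 0.0357), and the call was lost with median-ratio scaling (adjusted p = 0.0768), edgeR (0.091) or DESeq2 (0.201), and without any single IL-4 library of either genotype (0.0536 to 0.177) or replicate 1 of the basal LyzM-Cre Egr2 fl/fl ones (0.244). Ptgs1, which encodes cyclooxygenase 1, held 5.01 and 5.04 and then 11.4 and 12.8 tags in LyzM-Cre Egr2 fl/fl (adjusted p = 0.127), against 5.96 and 2.04 and then 55.3 and 39.2 tags in Egr2 fl/fl.

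Abca1, the cholesterol exporter, held 9.03 and 10.7 and then 10.4 and 13.4 tags, against 18.8 and 15.6 and then 48.2 and 55.2 tags in Egr2 fl/fl. Its log2 folds were 0.24 ± 0.36 and 1.54 ± 0.36, and its LyzM-Cre Egr2 fl/fl conditions overlapped. Lpl, which encodes lipoprotein lipase, held 273.8 and 463 tags and then 143.4 and 299.5 tags in LyzM-Cre Egr2 fl/fl, which overlapped, with a log2 fold of -0.78 that limma did not call (adjusted p = 0.117). It was called lower with median-ratio scaling (0.0427), edgeR (0.0451), DESeq2 (0.028) and without replicate 2 of the IL-4 libraries (0.0201). Of 24 inflammatory and chemotaxis genes 8 had a region, and limma called none in LyzM-Cre Egr2 fl/fl, with 2 under 0.05 before adjustment. Ccl3, a chemokine gene, was called lower by edgeR and DESeq2 (adjusted p = 0.0404 and 0.0366) and with median-ratio scaling (0.0316).

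RNA polymerase II (Pol II) in the same genotypes was analysed from 1 library a group, replicate 1, and no test was made; the replicate 2 columns of the table match no sample label and were not used here, so each Pol II value rests on 1 of 2 columns. For Pol II a gain means at least 2.5-fold with at least 8 tags. In LyzM-Cre Egr2 fl/fl 181 of the 376 regions (48.1%) gained Pol II, against 7.48% of all regions and 6.90% (30) of the 435. The median Pol II level in the 376 went from 4.55 to 17.3 tags, while over all regions it went from 7.15 to 7.99 tags. In Egr2 fl/fl 49.2% of the 376 and 28.3% of the 435 gained it, against 10.5% of all regions. At Msx3 Pol II went from 7.15 to 94.5 tags, at Pim3 from 11.1 to 101 tags and at the intronic Tmem26 region from 5.20 to 95.8 tags in LyzM-Cre Egr2 fl/fl.

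H3K4me2 changed at few regions. By limma 53 of the 4677 regions (1.13%) rose in LyzM-Cre Egr2 fl/fl, of which 34 were among the 376 (9.04%), and the median log2 fold was 0.42 in the 376 and 0.06 over all. In Egr2 fl/fl 8.06% of all regions rose, 13.8% of the 376 and 29.9% of the 435. The total of 54 calls fell to 31 or 21 without replicate 1 or 2 of the LyzM-Cre Egr2 fl/fl IL-4 libraries and to 27 without replicate 1 of the basal ones. In the 376 regions the basal H3K4me2 medians of LyzM-Cre Egr2 fl/fl were 28.5 and 32.8 tags, close to the 27.49 and 32.4 tags over all regions, whereas in the 435 they were 13.4 and 14.4 tags. The intronic Tmem26 region rose from 11.28 and 14.01 to 49.1 and 43.9 tags of H3K4me2 (log2 fold 1.80, adjusted p = 0.000473) and that of March10 from 13.4 and 17.9 to 44.0 and 48.5 tags (1.52, adjusted p = 0.00451), with no overlap.

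PU.1 rose at 131 regions (2.80%) in LyzM-Cre Egr2 fl/fl, and 89 of these were among the 376 (23.7%). The median PU.1 level in the 376 was 12.5 and 11.4 tags at rest and 24.5 tags in both IL-4 libraries, higher in both IL-4 libraries than in both basal ones. In the 435 it was 2.89 and 2.44 tags and then 4.46 and 4.04 tags, while in Egr2 fl/fl the same regions went from 4.25 and 4.17 to 11.1 tags in both. In Egr2 fl/fl 8.19% of all regions rose, 26.6% of the 376 and 23.9% of the 435. At Gpr65 PU.1 rose from 11.6 and 7.32 to 146 and 131 tags (log2 fold 3.77, adjusted p = 1.13e-07), the highest estimate of all regions. The total of 136 PU.1 calls was 26 or 47 without replicate 1 or 2 of the LyzM-Cre Egr2 fl/fl IL-4 libraries, 81 without replicate 1 of the basal ones, and 34, 34, 77 and 78 without each Egr2 fl/fl library.

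STAT6 rose at 56 regions (1.20%) in LyzM-Cre Egr2 fl/fl, 42 of them among the 376 (11.2%) and 1 among the 435. The median log2 fold was 1.29 in the 376, 0.21 in the 435 and 0.31 over all regions. In Egr2 fl/fl STAT6 rose at 11.8% of all regions, at 52.1% of the 376 and at 20.9% of the 435, with median log2 folds of 2.07 and 1.60, and the difference between the genotypes was called at no region (383 passed before adjustment, 375 of them lower). The count of 56 fell to 1 without replicate 1 and to 5 without replicate 2 of the LyzM-Cre Egr2 fl/fl IL-4 libraries, to 8 without either Egr2 fl/fl IL-4 library and to 12 without replicate 2 of the basal LyzM-Cre Egr2 fl/fl libraries. At Pim3 STAT6 went from 2.23 and 3.67 to 79.4 and 31.5 tags (log2 fold 3.72, adjusted p = 0.00107), and at Mgl2 from 6.69 and 4.59 to 43.3 and 25.9 tags (2.40, adjusted p = 0.0297).

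In LyzM-Cre Egr2 fl/fl limma called C/EBPb and PPARg at 0 regions, with 199 and 190 past 0.05 before adjustment. The counts were 53 and 1 with edgeR, 18 and 1 with DESeq2, and for PPARg 24, 13 and 45 without replicate 2 of the LyzM-Cre Egr2 fl/fl IL-4 libraries or replicate 1 or 2 of the basal ones. In Egr2 fl/fl limma called C/EBPb higher at 98 regions and PPARg at 0, with 852 and 954 past 0.05 before adjustment. The difference between the genotypes was called at 0 regions for both (314 and 604 before adjustment). In the 376 regions the median log2 fold of C/EBPb was 0.77 in LyzM-Cre Egr2 fl/fl and 1.29 in Egr2 fl/fl. Over all regions it was 0.06 and 0.74, and in the 435 it was 0.33 and 1.71. For PPARg these medians were 0.59 and 2.73 in the 376, 0.00 and 1.66 over all regions and 0.00 and 2.06 in the 435. For PPARg, replicate 2 of the basal Egr2 fl/fl and of both LyzM-Cre Egr2 fl/fl groups had a median of 0 tags over all regions; these 3 libraries had 3084 to 3124 regions at 0, against 939 to 1759 in the other 5.

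**Figure D3:**
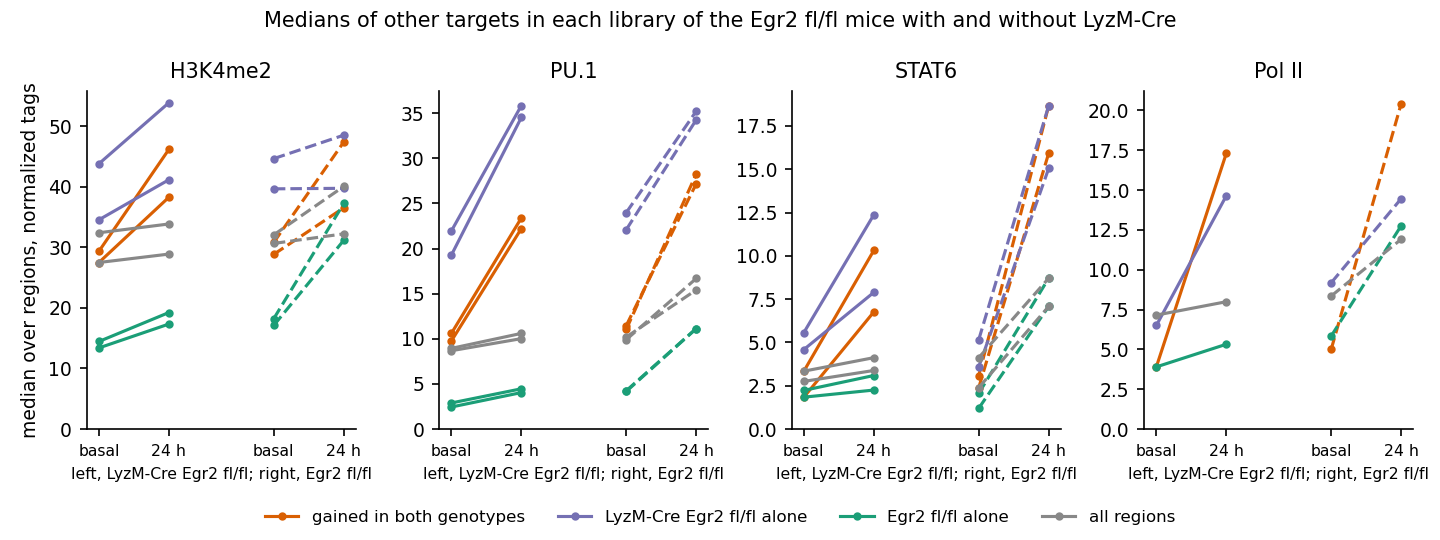
Median level of H3K4me2, PU.1, STAT6 and Pol II over the regions of each class, in normalized tags, with 1 line for each replicate number from basal to 24 h IL-4; in each panel solid lines on the left are LyzM-Cre Egr2 fl/fl and broken lines on the right Egr2 fl/fl. In LyzM-Cre Egr2 fl/fl the medians of regions gained in both genotypes (orange) were higher after IL-4 for all 4 targets, while those gained in Egr2 fl/fl alone (green) lay below those of all regions (grey).

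In C57 macrophages, whose libraries were not used by the rule, 341 of the 376 regions could be matched to an open region with its centre within 500 bp. Of these 41.1% gained H3K27ac by the fold rule at 1 h of IL-4, 69.2% at 6 h and 67.2% at 24 h, against 7.59%, 19.1% and 16.8% of all 3384 matched regions. Of the 435, 316 were matched, and 10.8%, 54.1% and 60.8% of them gained the mark at these times. The retained gains thus differed from those of Egr2 fl/fl alone more at 1 h than at 24 h, a comparison made without a test since all regions share the same libraries. The 2 libraries of 1 h differed in level, with medians over the 376 of 27.2 and 48.7 tags.

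**Figure D4:**
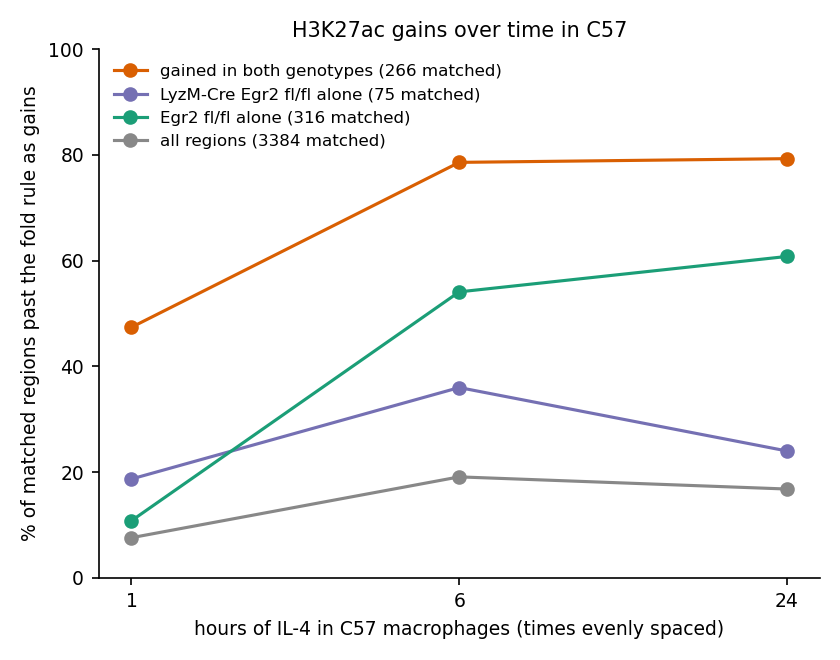
Percentage of the matched regions of each class that gained H3K27ac by the fold rule in C57 macrophages after 1, 6 and 24 h of IL-4, each against basal. At 1 h 47.4% of the regions gained in both genotypes and 10.8% of those gained in Egr2 fl/fl alone had passed the rule. These shares also depend on level, since the rule has a minimum of tags.

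STAT6 peaks called by the authors in C57 macrophages overlapped 80.9% of the 376 regions at 1 h of IL-4 (95% Wilson interval 76.6 to 84.5), 40.7% of all regions and 28% of the 435 (24.03 to 32.45). At 24 h the shares were 88.8%, 59.8% and 64.1%, and at rest 37.2%, 31.8% and 8.74%. The overlap of the 435 thus lay below that of all regions at 1 h and slightly above it at 24 h.

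EGR2 itself, in C57 macrophages, had median tags over the 376 of 10.8 and 9.40 at rest, 7.23 and 28.9 at 1 h, 13.97 and 48.4 at 6 h and 33.7 and 38.4 at 24 h. Over all regions the medians were 4.52 and 15.4 at 1 h and 31.4 and 25.9 at 24 h, and over the 435 they were 42.6 and 28.8 at 24 h. The 2 libraries of 1 h and of 6 h differed several-fold, so these levels are read within a library only. An EGR2 peak was listed already at 1 h at 12.5% of the 376 regions, 3.36% of all regions and 3.91% of the 435.

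The STAT6 motif was present in the central 200 bases of 50.8% of the 376 regions (191, interval 45.8 to 55.8), of 17.5% of all regions and of 22.1% of the 435. The EGR motif was present in 17.6%, 24.7% and 32.4%. A STAT motif with 3 bases between TTC and GAA was present in 13.3%, 10% and 12.2%, the AP-1 motif (TGANTCA) in 26.1%, 22% and 23.9%, and the PU.1 motif (GAGGAAGT) in 9.04%, 7.36% and 3.68%. A C/EBP match was found in 13.8%, 16.5% and 12.2%, and the PPAR-RXR motif in 0 of the 376 and in 2 of the 4677. Both strands were searched, matches of different motifs may overlap, and a match is a description of the sequence. The median GC content was 46% in the 376, 47.5% in the 435 and 48% over all.

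**Figure D5:**
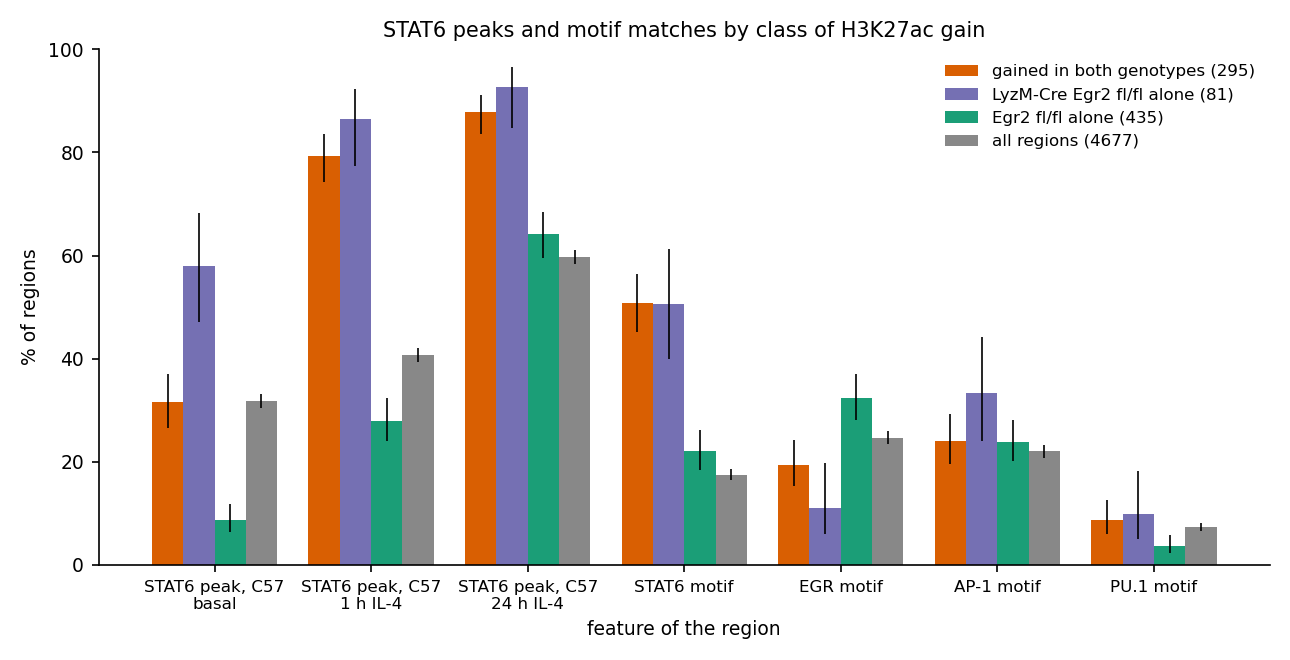
Percentage of regions that overlap a STAT6 peak of C57 macrophages or hold a motif match in the central 200 bases, by class of H3K27ac gain; lines are 95% Wilson intervals, which cover counting error only. At 1 h the regions gained in both genotypes (79.3%) and in LyzM-Cre Egr2 fl/fl alone (86.4%) had STAT6 peaks more often than all regions (40.7%).

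The retained gains were also seen in macrophages of 4 further inbred strains, each with 2 basal and 2 IL-4 libraries of H3K27ac. Of the matched regions among the 376, 65.6% of 270 gained the mark at 24 h in BALB/cJ, 69.2% of 289 in NOD/ShiLtJ, 60.3% of 252 in PWK/PhJ and 51.1% of 180 in SPRET/EiJ. Over all matched regions the shares were 13.4%, 15.9%, 15.3% and 11.6%, and in the 435 they were 54.5%, 62.2%, 49.4% and 34.5%. Of 139 members that were matched in all 4 strains, 48 (34.5%) gained the mark in every strain and 26 (18.7%) in none, against 4.41% and 81.9% of all 1451 regions matched in every strain. Among the 730 gains of Egr2 fl/fl, which include the shared gains, the shares were close to those of the 376, at 32.9% and 18.2% of 170. They were 17.1% and 27.1% of 70 among the 435. Among the 81 that passed in LyzM-Cre Egr2 fl/fl alone they were 10.3% and 35.9% of 39.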

How the data were processed

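ChIP-seq of bone marrow derived macrophages was analysed from tables of signal that the authors deposited, in normalized tags (reads scaled to 10000000 per library) counted with HOMER. Single-end reads of the Egr2 genotypes and C57 were aligned to mm10 with bowtie2. The paper states that reads of the further strains were first aligned to genomes built for each strain and then shifted to mm10. Tags were counted over EGR2 sites, in 1000 bp windows for histone marks and 300 bp for factors. The exception was H3K27ac of C57 and the further strains, which was counted around open-chromatin peaks. The STAT6 peak lists deposited by the authors carry a score per peak from the reproducibility analysis (IDR) between replicates, and only peak positions were used. Whole reads were recovered from the signal at 100% of 243204 values within 0.1 read. For each target, limma (3.58.1, R 4.3.3) was fitted to log2(tags + 1) of all 8 libraries with 1 coefficient per group, with Benjamini-Hochberg adjustment over 4677 regions; Pol II was used from 1 library per group, with no test. An exact permutation test of 2 against 2 libraries cannot go below 0.333. edgeR 4.0.16 and DESeq2 1.42.0 on recovered reads, other scalings, pseudocounts, filters and left-out libraries were alternatives. On simulated data limma recovered 61% of 2.5-fold and 90% of 4-fold changes, with 2 false calls. Named regions were the 12 largest gains and 4 lowest folds in LyzM-Cre Egr2 fl/fl. These came from regions past the rule whose replicates did not overlap in that genotype. Also named were the 6 lowest differences of the responses among gains of Egr2 fl/fl without overlap. The 4 highest differences came from gains of LyzM-Cre Egr2 fl/fl. Each of these sets held 1 region per nearest gene. For each listed gene the region within 50 kb with the highest mean H3K27ac over all 8 libraries was taken. The members and gene lists were chosen with earlier results of these data known. The 4 Pol II replicate 2 columns of the table match no sample label and were left out. The labels name no mice, so p-values measure the spread between these libraries.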

Additional observations from a re-analysis of the deposited data

Results flagged for a closer look

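In H3K4me2 the IL-4 responses of the genotypes differed at 2 of 4677 regions by limma. In an intron of Spata21 (chr4:141088381-141089381) the level was 9.87 and 4.82 tags at rest and 1.44 and 6.16 tags after IL-4 in LyzM-Cre Egr2 fl/fl, and 2.70 and 1.89 and then 30.07 and 28.2 tags in Egr2 fl/fl, a difference of -4.13 ± 0.77 on the log2 scale (adjusted p = 0.000453). Near Src, a tyrosine kinase gene (chr2:157409732-157410732, 8.21 kb from its start), it was 6.34 and 3.07 and then 2.89 and 1.54 tags, against 1.80 and 2.51 and then 26.9 and 22.6 tags, a difference of -3.83 ± 0.84 (adjusted p = 0.0134). At both regions the 2 Egr2 fl/fl IL-4 libraries stood above the other 6. The H3K27ac differences there were -0.85 and -1.62 and were not called (adjusted p = 0.767 and 0.382). Neither H3K4me2 difference was called with median-ratio scaling, edgeR or DESeq2.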

How the results depend on the processing

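The H3K27ac response of LyzM-Cre Egr2 fl/fl kept 464 to 673 of its 673 higher calls under other tools, scalings, pseudocounts and the replicate block, and 468 to 658 when 1 library was left out. The calls in Egr2 fl/fl ranged from 721 to 1357 over left-out libraries. The difference of the responses gave 60 calls with a pseudocount of 5, 2 with DESeq2 and 0 to 16 over left-out libraries. The replicate numbers are shared between groups, but nothing says that they mark a shared mouse or day, and same-numbered H3K27ac libraries correlated at 0.0942 to 0.2 in their deviations. With that number as a block the pairing gave 72 calls for the difference (10 higher and 62 lower), 103 for H3K4me2, 289 for STAT6, 191 for PU.1 and 1 for C/EBPb. With DESeq2 H3K4me2 had 23 calls, STAT6 20, PU.1 49, C/EBPb 18 and PPARg 1, and with edgeR C/EBPb had 53 and PPARg 1. With median-ratio scaling PU.1 had 86 and C/EBPb 2, the fold rule in Egr2 fl/fl held for 480 regions in place of 745, and the retained share was 50.78%. Left-out libraries gave 21 to 62 calls for H3K4me2, 1 to 45 for STAT6, 0 to 45 for PPARg, 26 to 181 for PU.1 and 0 for C/EBPb. Without the minimum of 16 tags, 663 regions passed the fold rule in LyzM-Cre Egr2 fl/fl, of which 553 were gains. Of 1398 values of named results under alternatives, 1323 stayed on the same side of the threshold, 40 lost a call, 35 gained one and 0 changed direction after a call. The cause was not tested for any of these. With 2 libraries per group, 2.5-fold changes are often missed, and the lowest levels rest on few reads.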
